A study of Mus musculus with 9 samples.

Results

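The 10 genes described here are Wnt2 and 9 genes that carry a canonical Wnt signal through a cell: the receptors Fzd6 and Fzd7, the co-receptors Lrp5 and Lrp6, the beta-catenin gene Ctnnb1, the feedback inhibitor gene Axin2, and the nuclear factor genes Lef1, Tcf7 and Tcf7l2. They are 10 of the 43629 Ensembl gene identifiers in the deposited table. Each of the 10 was found by its symbol and each was among the 15997 genes tested. Wnt2 was chosen by its measured values, since its increase in the KI libraries over the WT libraries was among the largest, so its values are given as a description with no test. The other 9 genes were listed by their place in the pathway, with earlier results of these data known.

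RNA was sequenced from mouse bone marrow cells on the C57BL/6 background, selected magnetically for CD117, which is c-KIT, a receptor on blood stem and progenitor cells. The KI_Chd7del group was Chd7f/f, Mx1-Cre, Cbfb+/56M, which adds floxed alleles of Chd7, a gene for a chromatin remodelling ATPase, to the alleles of the next group. The KI group was Mx1-Cre, Cbfb+/56M, where Cre switches on a Cbfb allele that codes for the CBFB-MYH11 fusion protein of human acute myeloid leukaemia. The WT group was labelled wild type, and its label names no Mx1-Cre, so the KI libraries differ from the WT libraries by the fusion allele and by Cre together. Each group had 3 libraries. The mice of every group had received pIpC, a double-stranded RNA that raises interferon. The Mx1 promoter responds to interferon, and it does so in many cell types, not in blood cells alone. The labels give no ages, nor whether each library is a mouse of its own. A p-value here therefore sets a difference against the scatter among these libraries, which may be technical.

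In canonical Wnt signalling a secreted Wnt protein binds a Frizzled receptor together with the co-receptor LRP5 or LRP6. Without that signal, a destruction complex built on AXIN and APC marks beta-catenin for degradation. With it, beta-catenin accumulates and joins the DNA-binding proteins of the TCF/LEF family at their target genes, among them Axin2, whose product slows the pathway again. In blood, Tcf7 and Lef1 are best known for their roles in the development of T cells and early B cells.

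The values are read numbers that the authors scaled to a common size and rounded, termed normalised values. Summed over genes they came to 37.54 to 38.08 M per KI_Chd7del library, 37.72 to 39.0 M per KI library and 43.22 to 46.16 M per WT library. Chd7 ran from 1794 to 1921 in KI_Chd7del, from 1979 to 2934 in KI and from 3471 to 3982 in WT, and a value over the whole gene does not show the loss of the floxed part alone. Myh11, part of the fusion, ran from 164 to 187 in KI_Chd7del, from 176 to 219 in KI and from 5 to 9 in WT. Kit, the gene of the selected receptor, was present in every library, from 6131 to 8508 in KI_Chd7del, from 3226 to 3868 in KI and from 7354 to 7797 in WT. The cells of the 3 groups were not of 1 composition: the summed value of 8 late neutrophil genes ran from 1161857 to 1527153 in KI_Chd7del, from 134116 to 629217 in KI and from 4067457 to 5061109 in WT. In bulk RNA, fewer cells of a type and less RNA per cell cannot be told apart.

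Most of the 9 genes other than Wnt2 differed between at least 1 pair of groups, on a background where a large share of all genes did so too. In KI against WT, 5 of the 9 passed an adjusted p of 0.05 in limma, 4 of them higher (Lrp6, Ctnnb1, Axin2, Tcf7l2) and 1 lower (Tcf7), while 58.9% of all genes tested passed (31.8% higher, 27.2% lower). In KI_Chd7del against KI, 4 of the 9 passed, with Lef1 higher and Fzd7, Lrp6 and Tcf7l2 lower, beside 40.4% of all genes (17.5% higher, 22.9% lower). In KI_Chd7del against WT, 7 of the 9 passed, 6 of them higher (Lrp5, Lrp6, Ctnnb1, Axin2, Lef1, Tcf7l2) and Tcf7 lower, beside 48.4% of all genes (24% higher, 24.3% lower). The median log2 fold changes of the 9 genes were 0.33, -0.43 and 0.36 in these comparisons, beside 0.02, -0.01 and 0.02 over all genes tested. Without KI_Chd7del library 1 the median in KI_Chd7del against KI was -0.01, with 3 higher and 3 lower, and that in KI_Chd7del against WT was 0.59. Without KI library 1 the median in KI against WT was 0.58. Groups that did not overlap were found in 7 of the 9 genes in KI against WT (67.6% of all genes), in 5 in KI_Chd7del against KI (52% of all genes) and in 8 in KI_Chd7del against WT (57.6% of all genes). The 3 comparisons share libraries, and at these background shares the counts alone do not set the 9 genes apart.

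The share of higher calls over all genes depended on the scaling. It was 53.9% in KI against WT, but 74.2% after scaling to the column total, where the median log2 fold change of all genes was 0.25. In KI_Chd7del against WT it was 49.7%, but 78.7% after the same scaling, where that median was 0.26. In KI_Chd7del against KI it was 43.4%, but 57.4% with upper-quartile scaling and 57% with quantile normalisation.

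**Figure D1:**
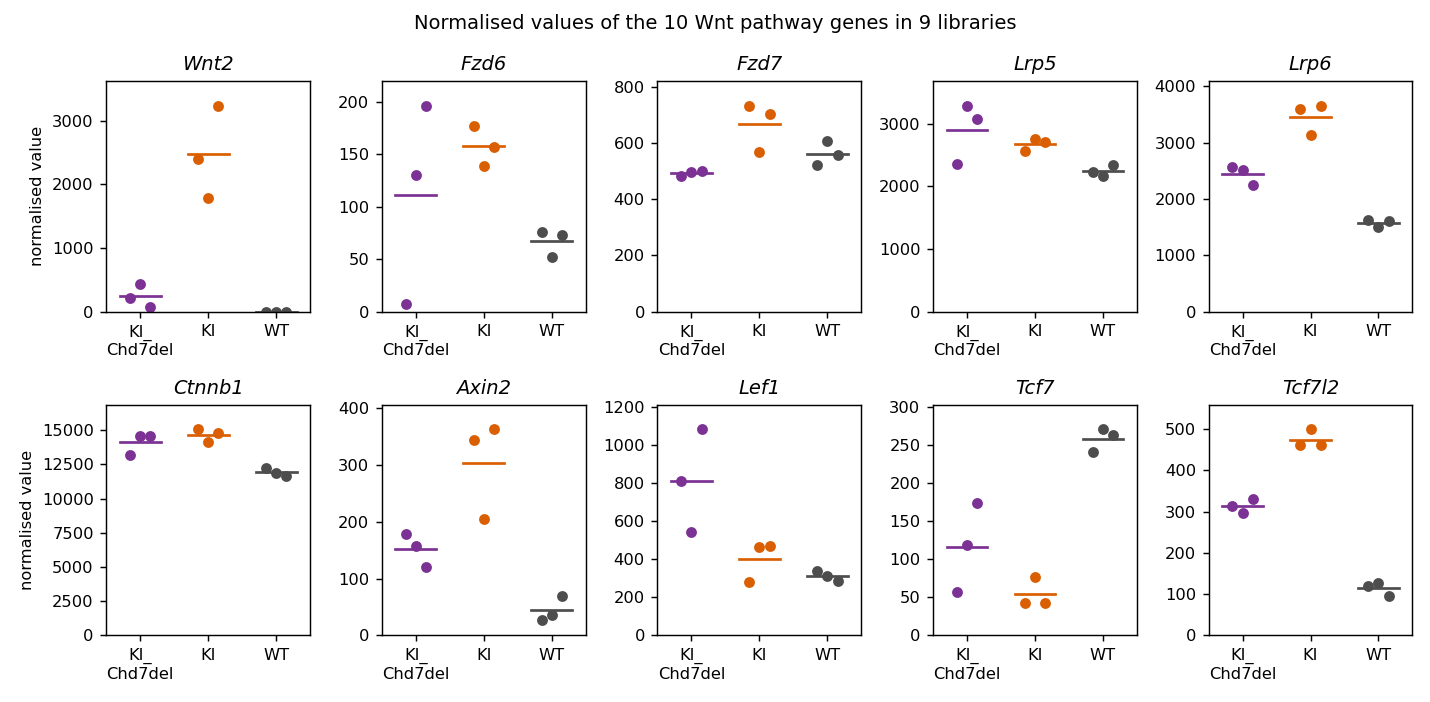
Normalised value (linear axis from 0, its range set for each gene) of the 10 genes in each library, grouped as KI_Chd7del, KI and WT, 1 point a library with the group mean as a line. Wnt2 lies between 1782 and 3235 in KI and at 0 to 2 in WT, while Tcf7 has its highest values, 241 to 270, in WT.

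Wnt2 codes for a secreted Wnt ligand and lies on chromosome 6 at chr6:17988940-18030585 on the minus strand (GRCm38, ENSMUSG00000010797). Its normalised values were 208, 441 and 70 in the KI_Chd7del libraries, 2399, 1782 and 3235 in the KI libraries, and 2, 0 and 0 in the WT libraries. The 3 groups did not overlap, and the highest KI_Chd7del library lay below the lowest KI library. The group means were 240 ± 188 in KI_Chd7del, 2472 ± 729 in KI and 0.667 ± 1.15 in WT (SD, n = 3 each). The log2 fold change was 10.70 (SE 0.65) in KI against WT, the contrast that chose the gene. It was -3.68 (SE 0.65) in KI_Chd7del against KI and 7.02 (SE 0.65) in KI_Chd7del against WT, and both of these share libraries with the contrast that chose it.

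Near 0 these fold changes depend on the pseudocount added before the logarithm. With a pseudocount of 16 in place of 1, they were 7.18 in KI against WT and 3.63 in KI_Chd7del against WT. The summed values gave a ratio of 3708 for KI over WT, with an exact 95% interval from 1026 to 30624. The same ratio was 360 for KI_Chd7del over WT, from 99.2 to 2974, and 0.097 for KI_Chd7del over KI, from 0.0897 to 0.105. These intervals take a normalised value of 1 as 1 read and cover counting error only. They leave out the spread among the libraries of a group and the choice of Wnt2 by these values, so they are no test. Among the 15997 genes tested, Wnt2 had the log2 fold change ranked 3 from the top in KI against WT, 92 from the bottom in KI_Chd7del against KI and 6 from the top in KI_Chd7del against WT.

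The stretch of RefSeq's Wnt2 promoter window (GRCm38.p6) that lies before the annotated gene is shown because it adjoins the start of the gene with the largest fold change of the 10. It spans chr6:18030586-18030695 on the minus strand, from 250 to 141 bases before the RefSeq start, and is written 5′ to 3′ with no capitals because it held no match to the motifs searched.
Wnt2: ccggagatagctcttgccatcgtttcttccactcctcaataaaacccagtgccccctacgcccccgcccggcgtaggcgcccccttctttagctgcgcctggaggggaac
The motifs were CTTTGA, the only form of the TCF/LEF core searched, and the RUNX cores TGTGGT and TGCGGT. Both strands were searched, and no match of one overlapped a match of another. RUNX proteins are the DNA-binding partners of CBFB. Of all 32851 RefSeq promoter windows, reaching from 250 bases before to 50 bases after the start, 16% held CTTTGA, 16.8% held TGTGGT and 6.45% held TGCGGT. Of the 13 windows of 7 of the 10 genes, 1 held CTTTGA and 0 held either RUNX core. Fzd6, Lrp5 and Lrp6 had no entry.

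Wnt2 made up most of the Wnt ligand RNA in the libraries with the fusion. Its share of the summed normalised values of all Wnt ligand genes was 87.0%, 90.2% and 61.9% in KI_Chd7del, 98.3%, 97.4% and 98.4% in KI, and 3.92%, 0% and 0% in WT. The other ligands together held 31, 48 and 43 in KI_Chd7del, 42, 48 and 52 in KI, and 49, 41 and 41 in WT, ranges that overlap in every pair of groups. These shares are not divided by gene length.

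Of the 18 other Wnt ligand genes, 14 were above 0 in at least 1 library and 2 reached the level for a test. Wnt10a, a canonical ligand, was at 4, 9 and 8 in KI_Chd7del, 2, 3 and 1 in KI, and 16, 12 and 18 in WT. WT was highest without overlap, opposite to Wnt2. Wnt10a reached the level for a test only through the WT libraries, where it was high, so it is given by its values alone. Wnt2b, the closest relative of Wnt2 among the ligands, was at 10, 15 and 13 in KI_Chd7del, 12, 18 and 19 in KI, and 13, 6 and 6 in WT. It passed in KI against WT (0.95, SE 0.35, adjusted p = 0.0411 in limma), a call that was lost under 10 of the 21 alternatives (adjusted p from 0.0512 to 0.139), 6 of which left out 1 library.

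The enzymes and carriers that prepare Wnt proteins for secretion moved in opposite directions. Porcn, the acyltransferase that adds the lipid a Wnt needs to leave the cell, was at 14, 17 and 9 in KI_Chd7del, 74, 61 and 77 in KI, and 14, 10 and 9 in WT. It rose in KI over WT (2.59, SE 0.28, adjusted p = 5.36e-05) and fell in KI_Chd7del against KI (-2.36, adjusted p = 0.000395), and the KI_Chd7del and WT values overlapped. Wls, the carrier of lipid-bearing Wnt proteins to the cell surface, was at 6225, 4618 and 4661 in KI_Chd7del, 2773, 3322 and 3103 in KI, and 4452, 4522 and 4886 in WT. Wls fell in KI relative to WT (-0.59, SE 0.12, adjusted p = 0.0018) and rose in KI_Chd7del against KI (0.74, adjusted p = 0.00141). In both genes KI_Chd7del against WT did not pass (0.24, adjusted p = 0.521 for Porcn and 0.15, adjusted p = 0.319 for Wls). After scaling to the column total Wls did pass in it as higher (0.4, adjusted p = 0.016 in limma).

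**Figure D2:**
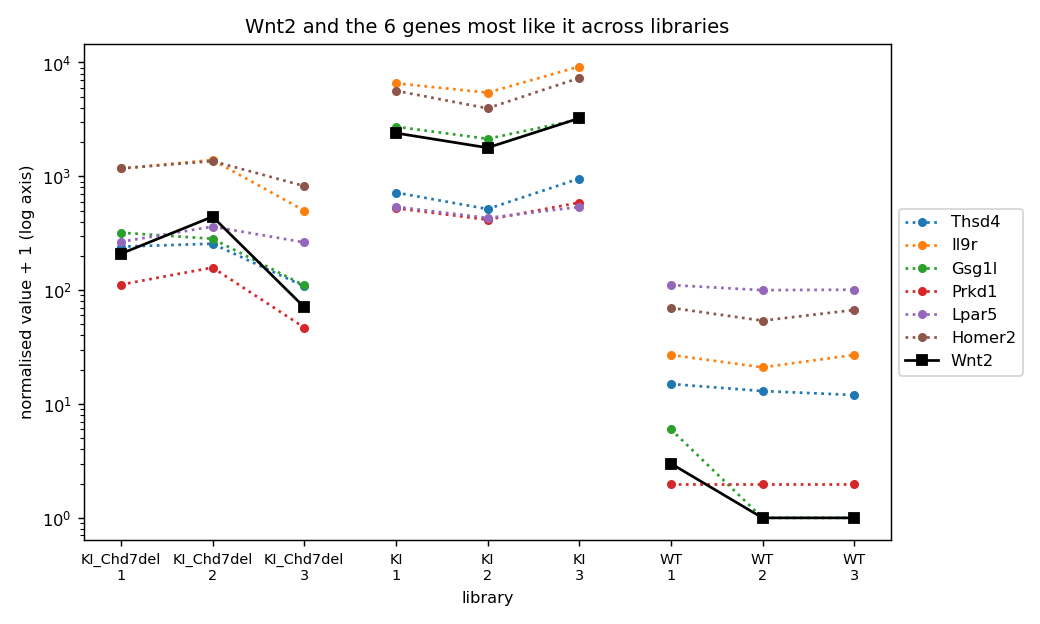
Normalised value + 1 (log axis) of Wnt2 and the 6 tested genes with the highest Pearson correlation to it, in the 9 libraries ordered by group. All 7 lines are highest in KI, lower in KI_Chd7del and lowest in WT, and within KI_Chd7del each is lowest in library 3.

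The genes whose values followed Wnt2 most closely over the 9 libraries were Thsd4, Il9r, Gsg1l, Prkd1, Lpar5 and Homer2, with Pearson correlations of log2(value + 1) from 0.993 to 0.996. The 9 points fall into 3 separate groups, so this likeness is a description of group levels as much as of single libraries. Il9r, an interleukin 9 receptor chain, was at 1171, 1393 and 499 in KI_Chd7del, 6566, 5433 and 9210 in KI, and 26, 20 and 26 in WT. Gsg1l was at 319, 282 and 109 in KI_Chd7del, 2729, 2134 and 3158 in KI, and 5, 0 and 0 in WT. As with Wnt2, library 3 was the lowest of KI_Chd7del and the highest of KI in both genes. Among the other pathway genes, Lrp6 had the highest correlation with Wnt2 (0.984), then Tcf7l2 (0.971), Axin2 (0.929) and Ctnnb1 (0.922). The correlation was 0.611 for Lrp5, 0.338 for Fzd7, 0.308 for Lef1 and 0.293 for Fzd6, and it was -0.919 for Tcf7.

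Most mast cell markers were higher in KI than in WT, as Wnt2 was, and 2 of them were lower. The summed value of 8 mast cell markers was 51260, 59662 and 44792 in KI_Chd7del, 97870, 59653 and 96034 in KI, and between 18682 and 21808 in WT, where Mcpt4 was at 0 in each library. Of the 8 markers, 6 passed as higher and 2 as lower in KI against WT (58.9% of all genes passed), and 2 passed as higher and 5 as lower in KI_Chd7del against KI (40.4% of all genes). The sums of KI_Chd7del and KI overlapped: library 2 of KI_Chd7del and library 2 of KI had nearly the same sum, while their Wnt2 values were 441 and 1782. The sum of 7 stromal markers ran from 630 to 1127 in KI_Chd7del, from 985 to 2026 in KI and from 499 to 773 in WT. Of the 5 stromal markers tested, 1 passed as higher and 2 as lower in KI against WT, and 2 passed as higher and 1 as lower in KI_Chd7del against KI, with medians of 0.50 and 1.27. The sum of 6 endothelial markers ran from 5032 to 5507 in KI_Chd7del, from 3457 to 3804 in KI and from 1820 to 2348 in WT, highest in KI_Chd7del and thus in another order than Wnt2. Of these 6, 2 passed as higher and 1 as lower in KI against WT (median 0.17). In KI_Chd7del against KI 4 passed as higher and 0 as lower (median 0.88). The sum of 8 monocyte and macrophage markers ran from 51999 to 54564 in KI_Chd7del and from 141540 to 163523 in KI. In WT it ran from 23085 to 26333, so the groups did not overlap and had the order of Wnt2. All 8 passed as higher in KI against WT (58.9% of all genes passed) and as lower in KI_Chd7del against KI (40.4%). In KI_Chd7del against WT 7 passed as higher and 0 as lower (48.4%). The part of any of these cells in the Wnt2 values was not tested.

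**Figure D3:**
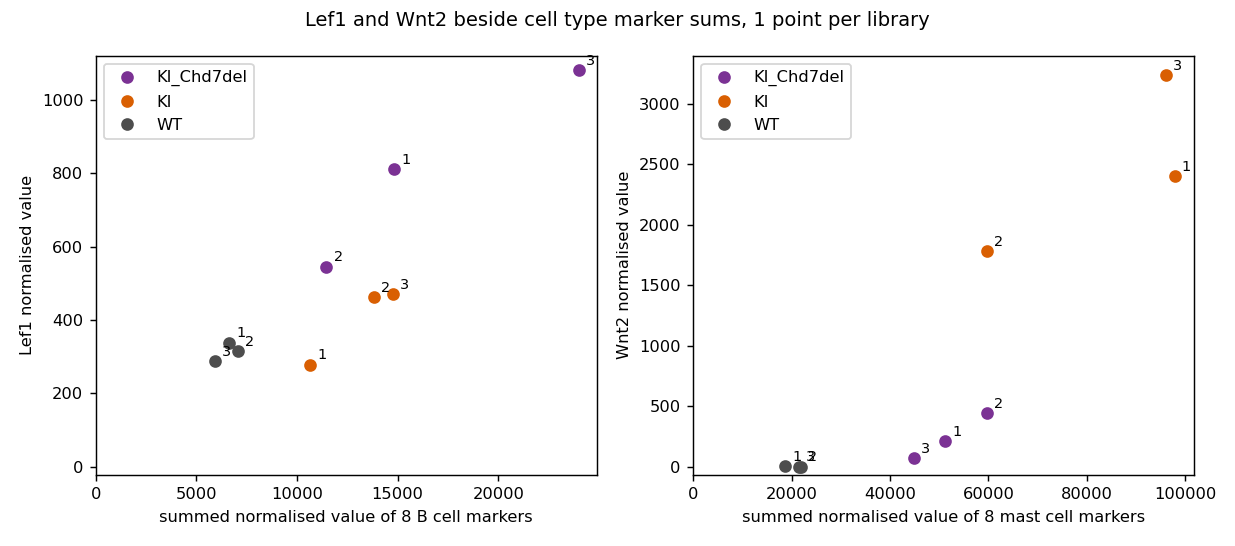
Left, Lef1 normalised value against the summed normalised value of 8 B cell markers; right, Wnt2 normalised value against that of 8 mast cell markers, 1 point a library with its replicate number, on linear axes from 0. Within KI_Chd7del, Lef1 and the B cell sum have the same order of libraries, and the library 2 points of KI_Chd7del and KI share a mast cell sum of about the same size with Wnt2 at 441 and 1782.

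Of the 4 receptor genes, Lrp6 had the smallest adjusted p. Lrp6 (chr6:134446476-134566965, minus strand), the co-receptor that carries the signal to AXIN, was at 2571, 2507 and 2241 in KI_Chd7del, 3595, 3137 and 3652 in KI, and 1619, 1498 and 1602 in WT. The 3 groups did not overlap, with KI highest and WT lowest. Lrp6 rose in KI over WT (log2 fold change of 1.13, SE 0.08, adjusted p = 3.12e-06 in limma), fell in KI_Chd7del against KI (-0.50, SE 0.08, adjusted p = 0.0012) and was higher in KI_Chd7del than in WT (0.63, SE 0.08, adjusted p = 0.000195).

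Lrp5 (chr19:3584828-3686564, minus strand), the second co-receptor, was at 2355, 3288 and 3081 in KI_Chd7del, 2568, 2750 and 2715 in KI, and 2230, 2163 and 2348 in WT. The KI_Chd7del libraries spread widely, and their lowest, library 1, was within 7 units of the highest WT library. Lrp5 was higher in KI_Chd7del than in WT (0.36, SE 0.11, adjusted p = 0.0233 in limma), a call that was lost when KI_Chd7del library 2 or 3 or WT library 1 or 2 was left out (adjusted p from 0.0572 to 0.0791). KI against WT did not pass (0.25, SE 0.11, adjusted p = 0.0731), though the groups did not overlap. It passed when KI_Chd7del library 1 (adjusted p = 0.00304) or library 2 (adjusted p = 0.0476) was left out of the shared fit, when the 2 groups were fitted alone (adjusted p = 0.00464) and after scaling to the column total (0.48, adjusted p = 0.0044). KI_Chd7del against KI did not pass (0.11, SE 0.11, adjusted p = 0.468), but did so at 0.25 without KI_Chd7del library 1 (adjusted p = 0.0113).

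Fzd7 (chr1:59482424-59486955, plus strand), a Wnt receptor, was at 481, 497 and 501 in KI_Chd7del, 732, 567 and 704 in KI, and 522, 607 and 556 in WT. The KI_Chd7del values were below those of both other groups without overlap. Fzd7 fell in KI_Chd7del against KI (-0.43, SE 0.11, adjusted p = 0.0118 in limma). KI against WT (0.24, SE 0.11, adjusted p = 0.075) and KI_Chd7del against WT (-0.19, SE 0.11, adjusted p = 0.177) did not pass. KI against WT passed without KI library 2 (0.36, adjusted p = 0.00764) and after scaling to the column total (0.47, adjusted p = 0.00318). With that scaling the KI_Chd7del difference from WT turned to 0.06.

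Fzd6 (chr15:39006034-39038188, plus strand), a Frizzled receptor best known for planar cell polarity, was at 7, 130 and 196 in KI_Chd7del, 177, 139 and 157 in KI, and 76, 52 and 73 in WT. The value of 7 in KI_Chd7del library 1 stood far below the other libraries of its group and of both other groups. No comparison passed: KI against WT gave 1.23 (SE 0.98, adjusted p = 0.306 in limma) with no overlap between the groups. KI_Chd7del against KI gave -1.42 (SE 0.98, adjusted p = 0.276), and KI_Chd7del against WT gave -0.18 (SE 0.98, adjusted p = 0.893). Without that library the SE for KI against WT was 0.22 and the same fold change of 1.23 passed (adjusted p = 0.00135), as did KI_Chd7del against WT at 1.26 (adjusted p = 0.00362). Without it, KI_Chd7del against KI was 0.02 (adjusted p = 0.943). Over the 21 alternatives, the adjusted p of Fzd6 in KI against WT ran from 0.00135 to 0.469.

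Of the 16 receptor and co-receptor genes listed, 12 were tested. Fzd9 met the level for a test only through the WT libraries, and Fzd8 only with both the KI_Chd7del and WT libraries. The counts below hold Fzd9 as a fall in KI against WT, and Fzd8 and Fzd9 as rises in KI_Chd7del against KI. Since both were higher in those groups than in KI, these calls are not read as results. They were lost under 11 (Fzd9, KI against WT), 13 (Fzd9, KI_Chd7del against KI) and 10 (Fzd8) of the 21 alternatives. In KI against WT 2 rose and 2 fell, in KI_Chd7del against KI 3 rose and 4 fell, and in KI_Chd7del against WT 4 rose and 2 fell, with medians of 0.16, -0.23 and 0.21, where 58.9%, 40.4% and 48.4% of all genes passed. Without KI_Chd7del library 1 the median in KI_Chd7del against KI turned to 0.07, with 4 higher and 4 lower, and that in KI_Chd7del against WT was 0.44. Without WT library 3 the median in KI_Chd7del against WT was 0.03, and without KI library 2 that in KI against WT was 0.04 and that in KI_Chd7del against KI was -0.36. With quantile normalisation the KI against WT count was 2 higher and 4 lower, with a median of -0.07, and after scaling to the column total it was 4 higher and 1 lower. A filter of at least 50 in 3 libraries left 9 of these genes, without Fzd8 and Fzd9. With it, 2 rose and 1 fell in KI against WT (median 0.24), where 8327 of 12912 genes passed. In KI_Chd7del against KI 1 rose and 4 fell (median -0.43), where 5854 of 12912 genes passed. In KI_Chd7del against WT 4 rose and 2 fell (median 0.36), where 7058 of 12912 genes passed. Fzd4, a receptor for both Wnt and norrin, was at 33, 18 and 24 in KI_Chd7del, 108, 87 and 93 in KI, and 16, 9 and 13 in WT. It rose in KI over WT (2.86, SE 0.29, adjusted p = 2.98e-05) and fell in KI_Chd7del against KI (-1.93, adjusted p = 0.00106). Ryk, a kinase-like Wnt receptor, was at 148, 188 and 211 in KI_Chd7del, 238, 153 and 173 in KI, and 741, 527 and 613 in WT. It was lower than in WT in both fusion groups (-1.78, adjusted p = 0.000142 in KI_Chd7del and -1.74, adjusted p = 7.67e-05 in KI). Fzd5 was at 62, 62 and 81 in KI_Chd7del, 104, 112 and 128 in KI, and 135, 185 and 121 in WT, and fell in KI_Chd7del against KI (-0.74, adjusted p = 0.0165), a call lost without KI_Chd7del library 2 (adjusted p = 0.0539) or KI library 3 (adjusted p = 0.0614). Fzd3 was at 110, 83 and 59 in KI_Chd7del, 21, 45 and 22 in KI, and 22, 31 and 26 in WT, and rose in KI_Chd7del against KI (1.53, SE 0.34, adjusted p = 0.00741).

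R-spondins strengthen Wnt signals by removing the ubiquitin ligases RNF43 and ZNRF3, which clear Frizzled receptors from the surface. Of 9 genes of this group 5 were tested, and 3 rose and 1 fell in KI against WT (median 1.13, or 3 and 0 after scaling to the column total), 1 rose and 2 fell in KI_Chd7del against KI (median -0.29), and 2 rose in KI_Chd7del against WT (median 0.24), where 58.9%, 40.4% and 48.4% of all genes passed. Rspo1, a secreted R-spondin, was at 46, 50 and 46 in KI_Chd7del, 126, 192 and 108 in KI, and 18, 19 and 14 in WT. Rspo1 rose in KI over WT (2.96, SE 0.24, adjusted p = 9.01e-06) and fell in KI_Chd7del against KI (-1.52, adjusted p = 0.00151). Rnf43 was at 201, 207 and 195 in KI_Chd7del, 386, 336 and 482 in KI, and 223, 177 and 149 in WT, with a rise in KI against WT (1.13, adjusted p = 0.000415) and a fall in KI_Chd7del against KI (-0.98, adjusted p = 0.00254). The ligand Rspo1 and the ligase gene Rnf43, whose products act against each other, were both highest in KI. Lgr4, an R-spondin receptor, was at 189, 160 and 156 in KI_Chd7del, 94, 132 and 83 in KI, and 138, 140 and 147 in WT, and rose in KI_Chd7del against KI (0.73, adjusted p = 0.0124). Lgr5, a related receptor, was at 149, 77 and 216 in KI_Chd7del, 83, 165 and 107 in KI, and 70, 52 and 29 in WT, and was higher in KI_Chd7del than in WT (1.5, adjusted p = 0.0197), a call lost without KI_Chd7del library 1 (adjusted p = 0.0511), KI_Chd7del library 3 (adjusted p = 0.0676) or WT library 3 (adjusted p = 0.0723). Without each of these the number that rose in KI_Chd7del against WT was 1. The count for KI against WT was 2 higher and 0 lower without KI library 3, WT library 2 or WT library 3.

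Of 16 genes for secreted or membrane antagonists of Wnt, 4 reached the level for a test. In KI against WT 3 rose and 0 fell (median 1.26), in KI_Chd7del against KI 0 rose and 2 fell (median -0.04, or 0 and 1 with a median of 0.05 under upper-quartile scaling), and in KI_Chd7del against WT 2 rose and 0 fell (median 0.51), where 58.9%, 40.4% and 48.4% of all genes passed. With 1 library left out in turn, the median in KI_Chd7del against KI ran from -0.18 without KI_Chd7del library 3 to 0.13 without KI_Chd7del library 1, and the call of Kremen1 there was lost in 7 of 9 cases (adjusted p from 0.0541 to 0.123). Dkk3, a member of the Dickkopf family, was at 84, 87 and 111 in KI_Chd7del, 39, 61 and 79 in KI, and 9, 7 and 14 in WT. It was higher than in WT in both fusion groups (3.15, adjusted p = 7.58e-05 in KI_Chd7del and 2.46, adjusted p = 0.000154 in KI). Apcdd1, a membrane inhibitor, was at 28, 41 and 55 in KI_Chd7del, 112, 89 and 95 in KI, and 33, 22 and 19 in WT, and rose in KI against WT (1.99, adjusted p = 0.000316) and fell in KI_Chd7del against KI (-1.28, adjusted p = 0.00819). Kremen1, a Dickkopf co-receptor, was at 426, 430 and 443 in KI_Chd7del, 535, 490 and 499 in KI, and 366, 341 and 343 in WT, and rose in KI against WT (0.54, adjusted p = 0.000255). Sfrp4, a secreted Wnt binder, was at 25, 43 and 58 in KI_Chd7del, 41, 42 and 26 in KI, and 46, 55 and 59 in WT, and passed in no comparison.

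Ctnnb1 (chr9:120929216-120960507, plus strand), the gene of beta-catenin, changed little in size. It was at 13208, 14596 and 14577 in KI_Chd7del, 15051, 14153 and 14757 in KI, and 12229, 11873 and 11683 in WT. Each library of either fusion group lay above each WT library, and the fusion groups overlapped. Ctnnb1 was higher than in WT in KI_Chd7del (0.24, SE 0.05, adjusted p = 0.00568 in limma) and in KI (0.30, SE 0.05, adjusted p = 0.00131). KI_Chd7del against KI gave -0.05 (SE 0.05, adjusted p = 0.458), which turned to 0.03 with upper-quartile scaling and to 0.01 with quantile normalisation. Beta-catenin is mainly controlled by protein breakdown, which RNA values do not measure. Ulk4, which overlaps it on the other strand, reached at most 19 in a library, and whether strand was used in counting is not given in the sources used here. Genes on the opposite strand of Fzd6, Axin2 and Tcf7 reached at most 3, and genes on the same strand as Tcf7 and Tcf7l2 that overlap them reached at most 7.

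Axin2 (chr11:108920349-108950783, plus strand), whose protein holds the destruction complex together and which is itself a Wnt target, was at 178, 158 and 120 in KI_Chd7del, 344, 206 and 363 in KI, and 27, 36 and 70 in WT. The 3 groups did not overlap in any pair, and KI was highest. Axin2 rose in KI over WT (log2 fold change of 2.82, SE 0.35, adjusted p = 0.00012 in limma) and was higher in KI_Chd7del than in WT (1.85, SE 0.35, adjusted p = 0.00239). KI_Chd7del against KI gave -0.97 (SE 0.35) and missed the threshold narrowly (adjusted p = 0.0536). It passed under 7 of the 21 alternatives, over which the fold change ran from -1.23 to -0.81 and the adjusted p from 0.0221 to 0.155. Library 2 was the lowest of KI for Axin2, as it was for Wnt2, Lrp6, Fzd6, Fzd7 and Ctnnb1.

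**Figure D4:**
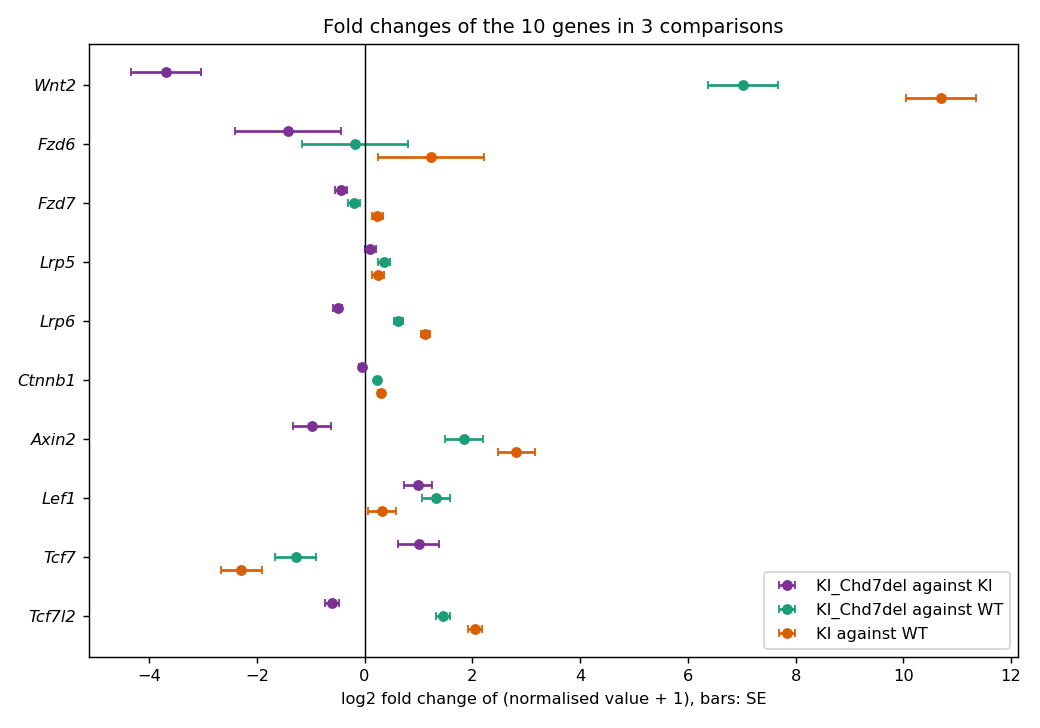
Log2 fold change of (normalised value + 1) on the x axis with its SE as a bar, for the 10 genes (rows) in KI_Chd7del against KI, KI_Chd7del against WT and KI against WT (colours). Wnt2, Lrp6, Axin2 and Tcf7l2 lie to the right of 0 against WT and to the left in KI_Chd7del against KI, Tcf7 does the opposite, and the bars of Fzd6 (SE 0.98) are the widest.

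The destruction complex and Dishevelled genes, 19 in number and each tested, had small median changes. In KI against WT 13 rose and 2 fell (median 0.36), in KI_Chd7del against KI 1 rose and 10 fell (median -0.21), and in KI_Chd7del against WT 9 rose and 3 fell (median 0.19). Of all genes, 31.8% rose and 27.2% fell in KI against WT, 17.5% rose and 22.9% fell in KI_Chd7del against KI, and 24% rose and 24.3% fell in KI_Chd7del against WT. Nkd1, which met the level for a test only through the KI libraries, where it was high, is in these counts. A filter of at least 50 in 3 libraries left out Nkd1 and Apc2. With it, 11 of 17 genes rose and 2 fell in KI against WT, where 8327 of 12912 genes passed. In KI_Chd7del against KI 1 rose and 8 fell, where 5854 of 12912 genes passed. Without that filter, the number that fell in KI_Chd7del against KI was 7 without KI library 3 and 7 without KI_Chd7del library 3. It was 6 with quantile normalisation and 5 with upper-quartile scaling, and after scaling to the column total 14 rose and 0 fell in KI_Chd7del against WT. Apc, the scaffold that binds beta-catenin, was at 2707, 2406 and 2633 in KI_Chd7del, 3028, 3382 and 3076 in KI, and 1875, 1836 and 1931 in WT. It rose in KI over WT (0.75, SE 0.06, adjusted p = 1.05e-05) and fell in KI_Chd7del against KI (-0.29, SE 0.06, adjusted p = 0.00623). Amer1, a partner of APC at the membrane, rose in KI against WT (0.92, adjusted p = 1.21e-05), and so did Tnks, the tankyrase that marks AXIN for breakdown (0.64, adjusted p = 2.53e-05). Both were lower in KI_Chd7del than in KI (-0.30 for Amer1 and -0.22 for Tnks), calls that were lost with upper-quartile scaling. That of Tnks was also lost without KI_Chd7del library 1 or 3 or KI library 2 (adjusted p from 0.0506 to 0.0766). Apc2, a relative of Apc, was at 26, 24 and 25 in KI_Chd7del, 41, 48 and 66 in KI, and 7, 10 and 8 in WT, and rose in KI against WT (2.48, adjusted p = 2.84e-05) and fell in KI_Chd7del against KI (-0.99, adjusted p = 0.012, but 0.0516 without KI library 3).

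The 3 TCF/LEF genes of the list each had another order of groups. Tcf7l2 (chr19:55741820-55933654, plus strand), the family member best known from the gut, was at 313, 297 and 330 in KI_Chd7del, 461, 499 and 462 in KI, and 120, 128 and 95 in WT. It was highest in KI and lowest in WT with no overlap. Tcf7l2 rose in KI over WT (2.05, SE 0.13, adjusted p = 1.94e-06 in limma), fell in KI_Chd7del against KI (-0.60, SE 0.13, adjusted p = 0.00586) and was higher in KI_Chd7del than in WT (1.46, SE 0.13, adjusted p = 3.62e-05).

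Tcf7 (chr11:52252371-52283014, minus strand), which codes for TCF-1, was at 57, 119 and 173 in KI_Chd7del, 43, 76 and 43 in KI, and 241, 270 and 263 in WT. WT was highest, with no overlap with either fusion group, and the fusion groups overlapped through KI_Chd7del library 1 and KI library 2. Tcf7 fell in KI relative to WT (-2.29, SE 0.38, adjusted p = 0.000659 in limma). It was lower in KI_Chd7del than in WT (-1.28, SE 0.38, adjusted p = 0.0201), a call lost without WT library 2 (adjusted p = 0.0592) or WT library 3 (adjusted p = 0.056). KI_Chd7del against KI gave 1.01 (SE 0.38, adjusted p = 0.0594), which passed without KI_Chd7del library 1 (1.45, adjusted p = 0.00523), without KI library 2 (1.28, adjusted p = 0.0338), with upper-quartile scaling (adjusted p = 0.0431), with quantile normalisation (adjusted p = 0.0468) and with the replicate number as a block (adjusted p = 0.0486). Over the 21 alternatives that adjusted p ran from 0.00523 to 0.183.

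The genes most like Tcf7 over the 9 libraries were Il21r, Acsl6, Ifit1bl2, Oscp1 and Ncr1, with Pearson correlations from 0.982 to 0.991. By Spearman correlation with Tcf7 they ranked 12, 230, 1, 104 and 12 in that order. Ncr1, an activating receptor of natural killer cells, was at 19, 57 and 90 in KI_Chd7del, 9, 14 and 12 in KI, and 133, 172 and 162 in WT. The summed value of 8 T cell markers ran from 429 to 933 in KI_Chd7del, from 696 to 1364 in KI and from 826 to 1211 in WT, ranges that overlap. Of the 8 T cell markers, 1 passed as higher and 1 as lower in KI against WT, where 58.9% of all genes passed. The part of lymphoid cells in the Tcf7 values was not tested.

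Lef1 (chr3:131110471-131224356, plus strand) was the only one of the 9 genes other than Wnt2 that passed as higher in KI_Chd7del against KI. It was at 812, 545 and 1081 in KI_Chd7del, 278, 462 and 471 in KI, and 338, 314 and 287 in WT. KI_Chd7del lay above both other groups without overlap, and KI overlapped WT. Lef1 rose in KI_Chd7del against KI (0.99, SE 0.26, adjusted p = 0.0162 in limma) and against WT (1.32, SE 0.26, adjusted p = 0.00301), while KI against WT did not pass (0.33, SE 0.26, adjusted p = 0.309). The rise over KI missed the threshold without KI_Chd7del library 3 (0.76, adjusted p = 0.0511) and without KI library 1 (0.74, adjusted p = 0.0514), and over the 21 alternatives its adjusted p ran from 0.00677 to 0.0514.

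A RefSeq start of Lef1 had the only window among those of these genes that held CTTTGA, the only form of the TCF/LEF core searched. Its window before the start is shown for that reason: chr3:131156044-131156293 (GRCm38.p6, plus strand), which lies within the gene, 5′ to 3′, with the 2 matches in capitals, read as TCAAAG because the core CTTTGA is on the other strand.
Lef1: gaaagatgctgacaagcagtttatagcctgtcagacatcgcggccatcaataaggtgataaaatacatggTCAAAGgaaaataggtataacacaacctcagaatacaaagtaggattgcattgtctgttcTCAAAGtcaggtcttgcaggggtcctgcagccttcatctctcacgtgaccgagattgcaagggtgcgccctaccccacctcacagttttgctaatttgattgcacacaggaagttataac
A match to 6 letters is a description of the sequence and not a binding site, and the deposited values do not tell which start of Lef1 was used.

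B cell markers followed Lef1 in part. The summed value of 8 B cell markers was 14814, 11453 and 23989 in KI_Chd7del, 10649, 13812 and 14749 in KI, and 6627, 7059 and 5926 in WT, and within KI_Chd7del the libraries had the same order as for Lef1. The sum was higher in KI than in WT without overlap, where Lef1 overlapped, and it overlapped between KI_Chd7del and KI, where Lef1 did not. Of the 8 markers, 5 passed as higher and 1 as lower in KI_Chd7del against KI (40.4% of all genes passed), 7 passed as higher in KI_Chd7del against WT (48.4% of all genes) and 3 passed as higher in KI against WT (58.9% of all genes). Among the genes most like Lef1 over the 9 libraries were Vpreb3, Pax5, Akap12 and Scn4a, with Pearson correlations from 0.964 to 0.976. By Spearman correlation with Lef1 they ranked lower, at 118, 30, 171 and 47 in that order. Of these genes, Pax5 is in the marker list, and Vpreb3 is a gene of early B cells as well. Pax5, the factor that commits cells to the B lineage, was at 411, 329 and 721 in KI_Chd7del, 201, 332 and 288 in KI, and 206, 236 and 182 in WT. The part of B cells in the Lef1 values was not tested.

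The balance among the nuclear factors differed between the groups. The log2 ratio of Tcf7l2 to Tcf7 was 2.44, 1.31 and 0.93 in KI_Chd7del, 3.39, 2.7 and 3.4 in KI, and -1.0, -1.07 and -1.46 in WT. Tcf7 had the higher value in each WT library and Tcf7l2 in each library of the fusion groups, before gene length was taken into account. The log2 ratio of Lef1 to Tcf7 was 3.81, 2.19 and 2.64 in KI_Chd7del, 2.66, 2.59 and 3.42 in KI, and 0.49, 0.22 and 0.13 in WT, so the fusion groups overlapped in it and both lay above WT.

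Of 17 symbols listed for beta-catenin, TCF/LEF factors and their co-factors, 16 matched a gene and 15 were tested. Of these, 7 rose and 5 fell in KI against WT (median 0.33, or 8 and 3 after scaling to the column total). In KI_Chd7del against KI 3 rose and 1 fell (median 0.07), and in KI_Chd7del against WT 9 rose and 4 fell (median 0.25). Of all genes, 58.9%, 40.4% and 48.4% passed. Without KI library 1 or KI_Chd7del library 3, 1 rose and 1 fell in KI_Chd7del against KI. The co-repressor genes of the Groucho family moved in opposite directions. Tle3 was at 2400, 2273 and 2516 in KI_Chd7del, 2294, 2282 and 2109 in KI, and 5137, 5705 and 5471 in WT, and was lower in KI than in WT (-1.29, SE 0.06, adjusted p = 5.16e-07). Tle1 was at 792, 1131 and 1082 in KI_Chd7del, 1091, 984 and 1078 in KI, and 384, 407 and 425 in WT, and was higher in KI than in WT (1.37, SE 0.13, adjusted p = 1.89e-05). Tle2 was also higher in KI than in WT (2.27, adjusted p = 0.000138), as was Bcl9l, a co-activator of beta-catenin (1.34, adjusted p = 2.71e-05). None of Tle1, Tle2, Tle3 and Bcl9l passed in KI_Chd7del against KI, though Tle3 did so with upper-quartile scaling (0.19, adjusted p = 0.0249) and with quantile normalisation.

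Of 15 genes known as canonical Wnt targets in other cells, 12 were tested, and 7 rose and 1 fell in KI against WT (median 0.82), 1 rose and 4 fell in KI_Chd7del against KI (median -0.02, or 3 and 4 with a median of 0.06 under upper-quartile scaling), and 5 rose and 1 fell in KI_Chd7del against WT (median 0.58). The shares of all genes that passed were 58.9% (31.8% higher), 40.4% and 48.4%. With 1 library left out, the number that rose in KI against WT was 6 or 7, and the median in KI_Chd7del against KI ran from -0.25 without KI_Chd7del library 3 to 0.03 without KI_Chd7del library 1. This list holds Axin2, Lef1, Tcf7 and Fzd7 of the 10 genes, and Rnf43, Apcdd1 and Lgr5, which were given above with their other roles. Fzd7 is among those that fell in KI_Chd7del against KI. Nkd1, a feedback inhibitor that binds Dishevelled, was at 4, 12 and 3 in KI_Chd7del, 34, 36 and 40 in KI, and 4, 3 and 4 in WT. KI was highest without overlap. With a filter of at least 50 in 3 libraries, which left out Nkd1, 11 targets were tested. Of these, 6 rose and 1 fell in KI against WT (median 0.5), where 8327 of 12912 genes passed. In KI_Chd7del against KI 1 rose and 3 fell (median 0.25), where 5854 of 12912 genes passed. Nkd1 is in the first counts here and in those of the destruction complex and Dishevelled genes. It met the level for a test only through the KI libraries, where it was high, so it is given by its values alone. Its relative Nkd2 was at 85, 50 and 75 in KI_Chd7del, 31, 54 and 41 in KI, and 11, 6 and 5 in WT, and was higher than in WT in both fusion groups (3.12, adjusted p = 0.000114 in KI_Chd7del and 2.4, adjusted p = 0.000269 in KI). Sp5, a target with a strong response in many cells, was listed at 0 in every library.

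**Figure D5:**
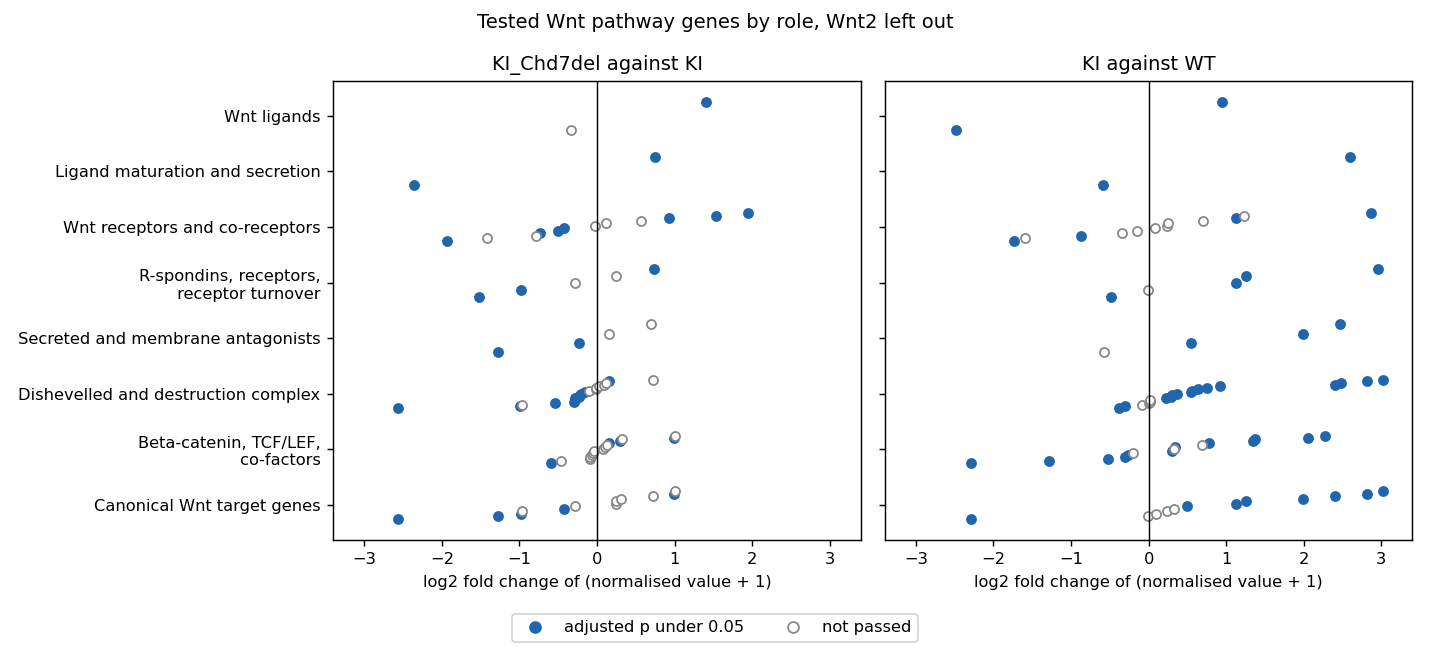
Log2 fold change of (normalised value + 1) of each tested pathway gene, 1 point a gene in rows by role with Wnt2 left out, for KI_Chd7del against KI (left) and KI against WT (right), filled where the adjusted p is under 0.05. In KI against WT 13 of the 19 Dishevelled and destruction complex genes are filled to the right of 0, and in KI_Chd7del against KI 10 of the 19 are filled to its left. The points include Nkd1, Wnt10a and Fzd9, which met the level for a test through 1 group, and Fzd8, which did so through 2.

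The levels of the 10 genes, as normalised value per kb of exon, showed where Wnt2 stood among the parts of its pathway. In KI_Chd7del, Ctnnb1 was highest at 2721 ± 153 per kb, and Wnt2 was 5 in order at 106 ± 83.2, beside Fzd7 at 109 ± 2.34 and Lef1 at 92.5 ± 30.5, from which it did not differ beyond its spread. In KI, Ctnnb1 was at 2822 ± 88.2 and Wnt2 came next at 1096 ± 323, above Lrp5 at 275 ± 9.92 and Lrp6 at 253 ± 20.6 (SD, n = 3). In WT, Ctnnb1 was at 2297 ± 53.4 and Wnt2 was last at 0.296 ± 0.512, below Axin2 at 8.05 ± 4.12. Axin2, Tcf7l2 and Lef1 were neighbours in KI at 55.3 ± 15.6, 54 ± 2.47 and 45.9 ± 12.4 per kb, within their spread. Tcf7 was at 44.3 ± 22.1 per kb in KI_Chd7del, 20.6 ± 7.26 in KI, where it was last, and 98.3 ± 5.76 in WT.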

How the data were processed

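RNA-seq libraries of c-KIT+ bone marrow cells, 3 for each of 3 groups, were analysed from 1 deposited table of 43629 genes. Its deposited whole numbers are treated as a score, since the authors appear to have rescaled each library and rounded afterwards; the values show this, as WT library 3 has no gene at 3 or 10. STAR 2.4, RSEM, DESeq2 and CASAVA 1.8.2 are named per the submitters' processing notes, without their roles, with GRCm38 as the build. Such values are not raw counts, so no count test was run. Because they were scaled to a common size, a gene's value depends on that scaling.

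Symbols, positions and merged exon lengths came from GENCODE M21, which matched 42462 identifiers. The 15997 genes that reached 10 in 3 or more libraries were fitted in R 4.3.3 by limma 3.58.1 (trended prior) as log2(value + 1), over all 9 libraries and without a block. Tests were 2-sided with Benjamini-Hochberg adjustment over all genes at 0.05. The added 1 makes fold changes of low genes too small. The script was tested on simulated data. Sequences came from RefSeq promoter windows (GRCm38.p6). Python 3.11.15 was used for the other steps.

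The 10 genes, the pathway lists and the marker lists were chosen with earlier results of these data known. Named genes are the 10, up to 4 others per role list with the smallest adjusted p in any comparison, ligands and antagonists with a group mean of at least 10, and the 6 or 5 tested genes with the highest Pearson r, leaving out Gm, Rik and pseudogene symbols; 1 gene that this rule names is not reported here. Libraries were not paired by replicate number in the main fit. Deviations of same-numbered libraries from their group means correlated from -0.153 to 0.109, which cannot show whether such libraries were prepared together. Alternatives were other filters, pseudocounts, scalings and models, fits of 2 groups, a replicate block and each library left out in turn.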

Additional observations from a re-analysis of the deposited data

How the results depend on the processing

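Over 21 alternatives in each comparison, the number of genes called stayed within 1.5 times its value. It was 9429 in KI against WT, and from 8095 to 9817 with 1 library left out. It was 6464 in KI_Chd7del against KI, from 4657 to 6394, and 7735 in KI_Chd7del against WT, from 6273 to 7884. Of the 630 values of the 10 genes, 592 kept their direction and their side of the threshold (for Wnt2, their direction and size), 21 passed where they had not, 8 no longer passed, 7 changed sign and 2 moved by more than their error. The sign changes were in differences that had not passed: Fzd6 in KI_Chd7del against WT was 0.12 with a pseudocount of 16, 0.06 after scaling to the column total and 1.26 without KI_Chd7del library 1, and against KI it was 0.02 without that library. With each library left out in turn, Fzd6 ran from -1.05 to 1.26 in KI_Chd7del against WT and from -2.29 to 0.02 in KI_Chd7del against KI. Fzd7 in KI_Chd7del against WT was 0.06 after scaling to the column total, and Ctnnb1 in KI_Chd7del against KI was 0.03 with upper-quartile scaling and 0.01 with quantile normalisation. By Spearman correlation, 2 of the 6 genes most like Wnt2 were shared with the Pearson list. With the replicate number as a block, 9121, 5952 and 7411 genes were called in the 3 comparisons in the order above, and Tcf7 in KI_Chd7del against KI was the call that changed among the 10 genes; 4 of 18 cases had the highest correlation with the library of the same number. Rounding limits values near 0, such as Wnt2 in WT, and 3 libraries a group limit the precision of Fzd6, Axin2, Lef1 and Tcf7. The cause of these changes was not tested.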

Other observations

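The genes around Wnt2 on chromosome 6 differed in their order of groups. Of the 6 protein-coding neighbours, 3 on each side, Asz1 was nearest (20.4 kb away). It was at 0, 0 and 0 in KI_Chd7del, 1, 1 and 2 in KI, and 0, 0 and 0 in WT, too low for a test. St7, a gene 45.9 kb away, was at 925, 993 and 916 in KI_Chd7del, 1221, 1138 and 1096 in KI, and 941, 843 and 996 in WT. It rose in KI against WT (log2 fold change 0.32, adjusted p = 0.00647 in limma) and fell in KI_Chd7del against KI (-0.29, adjusted p = 0.0178). Met, the hepatocyte growth factor receptor gene 415 kb away, was at 2571, 3922 and 3736 in KI_Chd7del, 3034, 3437 and 3777 in KI, and 879, 752 and 667 in WT. Met was higher than in WT in both fusion groups (2.14, adjusted p = 2.22e-05 in KI_Chd7del and 2.16, adjusted p = 6.61e-06 in KI), and KI_Chd7del against KI gave -0.02 (adjusted p = 0.928). Cttnbp2, 336 kb away on the other side, was at 6, 14 and 18 in KI_Chd7del, 26, 39 and 19 in KI, and 4, 2 and 4 in WT, and it met the level for a test only through the KI libraries. Capza2, an actin capping protein gene 322 kb away, was at 12111, 11697 and 12019 in KI_Chd7del, 15585, 14998 and 15160 in KI, and 12583, 12805 and 13054 in WT, higher in KI than in WT (0.25, adjusted p = 0.000837) and lower in KI_Chd7del than in KI (-0.35, adjusted p = 0.000418). Cftr, 140 kb away, was between 9 and 19 in KI_Chd7del, 14 and 19 in KI, and 11 and 23 in WT, and passed in no comparison.

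Rspo3, an R-spondin too low for the test, was at 1, 1 and 1 in KI_Chd7del, 14, 7 and 15 in KI, and 0, 0 and 0 in WT, highest in KI as Rspo1 was. Of the low ligands, Wnt6 was at 1, 8 and 7 in KI_Chd7del, 13, 7 and 12 in KI, and 4, 2 and 1 in WT, and Wnt10b was at 3, 1 and 3 in KI_Chd7del, 1, 3 and 4 in KI, and 13, 12 and 6 in WT. In Wnt10b each WT library lay above each library of the fusion groups, as in Wnt10a.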
